A study of Macaca mulatta with 6 samples.

Results

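Kinesins, centromere proteins and tubulins were followed in bulk RNA sequencing of cultured rhesus monkey spermatogonial stem cells (SSCs). Members were all genes in the count table whose symbol begins with KIF and a digit, CENP, TUBA, TUBB or TUBG, which gave 73 of 17795 genes. They comprised 38 KIF, 20 CENP, 5 TUBA, 5 TUBB and 5 TUBG symbols. SSC PDGF+ denotes 3 libraries of SSCs grown with platelet-derived growth factor (PDGF), a mitogen of mesenchymal cells, and SSC PDGF- denotes 3 libraries grown without it. The study's methods describe 3D culture in droplets of a basement membrane hydrogel, in a medium that held PDGF, GDNF, EGF, bFGF, LIF and Wnt3a. They give no separate recipe for cultures without PDGF. Replicate 1 of each group belonged to batch 1 and replicates 2 and 3 to batch 2. The animals' age, the donors and the days in culture are not given in the sources used here, and nothing says that the replicates were separate cultures, so p-values measure only the spread between these libraries.

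Kinesins are motors that walk along microtubules or take their ends apart. One set works in the mitotic spindle and at cytokinesis, another carries membranes and other cargo, and a further set serves cilia and flagella. CENP proteins form the centromere chromatin and the inner kinetochore, to which spindle microtubules bind. Microtubules are polymers of alpha- and beta-tubulin that are nucleated by ring complexes of gamma-tubulin, and the testis uses some tubulin isotypes and kinesins mainly in germ cells.

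Tubulin isotypes resemble each other over most of their length and differ most in the tail at the end of the coding sequence, which is why tails of isotypes that the results turn on are shown. The sequences are the sense strand, read 5′ to 3′, of RefSeq transcripts of Mmul_10 (annotation release 103) matched by symbol. Lower case marks the last stretch of 5 codons that encodes the same residues in every isotype compared in the class. Capitals mark the codons after it up to and including the stop codon. The alpha class was compared over TUBA1A, TUBA1B, TUBA3E, TUBA4A and TUBA8, and the beta class over TUBB, TUBB1, TUBB2B and TUBB4A. TUBB6 was not compared. The first 3 lines are alpha-tubulins and the other 3 are beta-tubulins.
TUBA3E: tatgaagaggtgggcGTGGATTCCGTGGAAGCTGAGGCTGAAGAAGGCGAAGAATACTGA
TUBA4A: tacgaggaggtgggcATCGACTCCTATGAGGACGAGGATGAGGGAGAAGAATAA
TUBA8: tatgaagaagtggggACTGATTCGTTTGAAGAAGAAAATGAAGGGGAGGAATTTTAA
TUBB: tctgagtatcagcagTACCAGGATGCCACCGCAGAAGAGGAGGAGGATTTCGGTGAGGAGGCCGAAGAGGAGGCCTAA
TUBB1: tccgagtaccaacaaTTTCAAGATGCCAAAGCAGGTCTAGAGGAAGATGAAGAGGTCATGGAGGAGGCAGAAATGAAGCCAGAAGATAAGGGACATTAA
TUBB2B: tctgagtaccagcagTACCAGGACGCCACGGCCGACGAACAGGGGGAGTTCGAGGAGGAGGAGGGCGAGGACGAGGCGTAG
The capitals held 14 codons before the stop codon in TUBA3E, but 27 in TUBB1. Over aligned coding bases TUBA1B was 84.5% identical to TUBA3E, 85.5% to TUBA4A and 82.3% to TUBA8, and TUBB was 84.3% identical to TUBB2B and 76.2% to TUBB1. Of the 50-base words in the transcripts of TUBA1A 27.0% occurred in transcripts of other genes, and of those of TUBA1B 67.9%. TUBA1A and TUBA1B shared 98.5% of their coding bases and had identical counts in all 6 libraries. These counts could not be divided between them. TUBB2B and TUBG1 likewise had the counts of 1 unnamed locus each, and KIF17 had those of its neighbour DDOST. The origin of the identical counts was not tested.

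Library totals ranged from 13095468 to 14102698 counts in SSC PDGF+ and from 10593808 to 11605912 in SSC PDGF-, and the members took 0.563% to 0.571% of the counts in SSC PDGF+ against 0.476% to 0.479% in SSC PDGF-. These shares, and the numbers and medians of members below, take the identical TUBA1A and TUBA1B entries as separate genes. They also include the KIF17 entry with the counts of DDOST. Levels are CPM, that is, counts scaled to library size after TMM normalization, and a gene was called at a Benjamini-Hochberg adjusted p under 0.05 in edgeR's quasi-likelihood test over all genes tested. Markers of undifferentiated spermatogonia were uneven in both groups. NANOS2 was at 0 in every library and GFRA1 had 0 to 9 counts per library, while ID4 had 1725 to 1885 and UCHL1 1898 to 3640. Of the 10 such markers listed, only 4 were tested, with 2 positive and 2 negative log2 fold changes. UCHL1 was called higher with PDGF and FGFR3 lower (-2.07, adjusted p = 0.019, edgeR). The FGFR3 call was lost with replicates 2 and 3 summed (adjusted p = 0.11, edgeR). ETV5 (0.20) and ID4 (-0.32) were not called. All 7 fibroblast markers were tested and summed to 20738 to 25840 CPM in SSC PDGF+ and 22749 to 23645 in SSC PDGF-, with COL3A1 and PDGFRA called lower. Of these markers 3 had positive and 4 negative log2 fold changes, and COL1A1, COL1A2 and FN1 were higher with the block. All 9 tested spermatid markers of 12 in the table were lower in SSC PDGF+, with summed levels of 122 to 168 CPM against 685 to 1029. In bulk libraries, fewer cells of a type and less RNA per cell cannot be told apart.

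Of the 73 members, 64 passed the filter on low counts and 11 were called, or 17.2%, beside 18.3% of all 11539 genes tested. Of all genes 7.61% were called higher and 10.7% lower. The 6 members that rose with PDGF were KIF16B, KIF26B, KIF4B, TUBB, TUBB2B and TUBGCP4, and the 5 that fell were KIF2B, CENPV, TUBA3E, TUBA4A and TUBA8. Thus the share called was close to the background, whereas the median log2 fold change was 0.29 over the tested members and 0.02 over all genes. With the replicate number as a block, 34 members were higher and 8 lower, where 60.1% of all genes passed (31.1% higher and 29.0% lower). Summing replicates 2 and 3, which share a batch, left 0 members higher and 2 lower, the latter being KIF2B with an adjusted p of 0.014 and TUBA3E with 0.020 in edgeR's quasi-likelihood test. Over all genes this setting called 5.78%, with 1.72% higher and 4.06% lower. DESeq2 called 12 members higher and 6 lower, beside 20.6% of all genes (8.81% higher and 11.8% lower). With 1 library left out, the number higher became 1 for PDGF+ replicate 2, 1 for PDGF+ replicate 3, 3 for PDGF- replicate 2, 2 for PDGF- replicate 3 and 14 for PDGF- replicate 1. Among all genes the number higher went from 878 to 435, 447, 444, 441 and 1284 in the same order. The number lower became 3 for PDGF+ replicate 3 and for PDGF- replicates 2 and 3. Among all genes the number lower went from 1230 to 726, 762 and 735 in these settings.

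**Figure D1:**
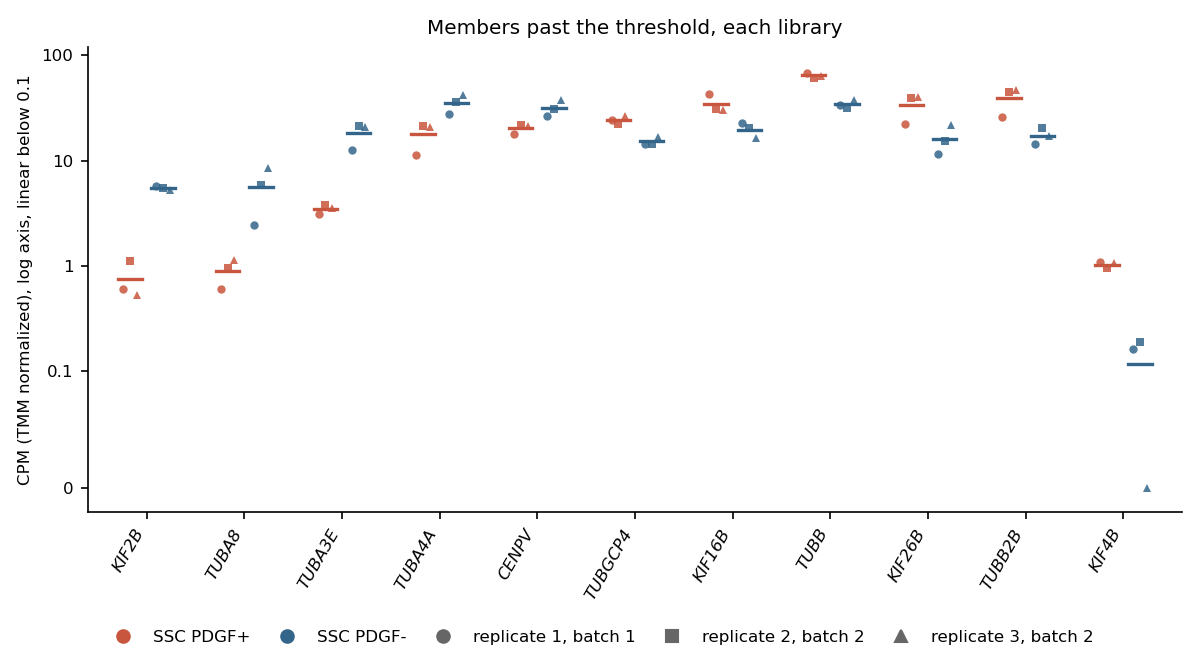
TMM-normalized CPM of the 11 called members in each library, on an axis that is logarithmic above 0.1 CPM and linear below, with short bars at the group means (n = 3), colour for the group and marker shape for the replicate. The groups do not overlap for any of the 11, and KIF2B, TUBA8 and TUBA3E on the left and KIF4B on the right lie furthest apart.

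The 13 mitotic kinesins were all tested, and 10 had positive and 3 negative log2 fold changes (median 0.33), where 51.4% of all genes were positive. KIF4B rose and KIF2B fell, and the other 11 were not called. Both KIF4B and KIF2B passed the filter on low counts only through the group where they were high. Neither had 10 or more counts in each library. KIF2B, a kinesin-13 that depolymerizes microtubules at kinetochores, had 0.611, 1.11 and 0.532 CPM in replicates 1, 2 and 3 with PDGF and 5.70, 5.49 and 5.23 CPM without PDGF. All SSC PDGF- libraries lay well above all SSC PDGF+ libraries. Its log2 fold change was -2.89 ± 0.35 (SE, n = 3 per group, adjusted p = 0.0014, edgeR), and the call held without each library in turn. Its relative KIF2C, the main mitotic depolymerase of this family, had 62.8, 65.3 and 60.8 CPM against 61.1, 72.0 and 71.8 CPM, so the groups overlapped (log2 fold change -0.15 ± 0.14, adjusted p = 0.50, edgeR). KIF2B and KIF2C shared 66.4% of their coding bases.

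KIF4B, a close copy of the chromokinesin KIF4A, was counted 16, 12 and 14 times in the libraries with PDGF and 2, 2 and 0 times in the others. The groups did not overlap, and the fitted log2 fold change was 2.98 ± 0.68 (SE, n = 3 per group, adjusted p = 0.020, edgeR). The ratio of summed counts, scaled for depth, was 8.59 with an exact (Clopper-Pearson) 95% interval of 3.12 to 33.0, which covers counting error only. The coding sequences of KIF4A and KIF4B were 95.6% identical, and 8.67% of the 50-base words of KIF4B occurred in other transcripts. KIF4A itself stood at 52.4, 41.7 and 43.8 CPM against 42.8, 27.5 and 28.7, and with the counts of both genes added the log2 fold change was 0.48 with an adjusted p of 0.15 in edgeR. In edgeR, the call on KIF4B was lost when PDGF+ replicate 2 (adjusted p = 0.059), PDGF+ replicate 3 (0.066) or PDGF- replicate 3 (0.050) was left out, and with replicates 2 and 3 summed (0.055).

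Among the uncalled mitotic kinesins the largest log2 fold changes were those of KIF20B and KIF14, motors of the central spindle and cytokinesis. KIF20B had 56.0, 35.5 and 37.1 CPM with PDGF and 37.2, 20.8 and 14.7 without (0.79 ± 0.34, adjusted p = 0.15, edgeR). KIF14 had 30.0, 19.1 and 19.1 CPM against 16.5, 10.7 and 12.7 (0.75 ± 0.25, adjusted p = 0.078, edgeR). The KIF20B groups overlapped, because the lowest SSC PDGF+ library lay below the highest SSC PDGF- library, and the KIF14 groups did not. KIF22, a chromokinesin, had 40.1, 52.2 and 60.03 CPM against 44.3, 69.0 and 58.5 and overlapped fully, with a log2 fold change of -0.20. Per kilobase of exon the most abundant mitotic kinesins in SSC PDGF- were KIF2C at 25.3, KIF22 at 18.2 and KIF20A at 10.6 CPM per kb, and in SSC PDGF+ they stood at 23.4, 16.1 and 11.95. KIF11, the motor that pushes spindle poles apart, had a log2 fold change of 0.28 ± 0.22 (adjusted p = 0.40, edgeR). With the replicate block 8 of the 13 were higher, namely KIF4A, KIF4B, KIF11, KIF14, KIF15, KIF18A, KIF20B and KIF23, and KIF2B and KIF22 were lower, beside 31.1% of all genes higher and 29.0% lower.

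Of the 19 centromere genes 18 were tested, with 16 positive and 2 negative log2 fold changes (median 0.32). Only CENPV was called, and it fell. CENPV, a protein of the centromere and central spindle, had 17.9, 22.0 and 21.2 CPM with PDGF and 26.3, 31.1 and 37.9 without. The groups did not overlap, and the log2 fold change was -0.67 ± 0.19 (SE, n = 3 per group, adjusted p = 0.043, edgeR). After a correction for GC content and length with the block, the log2 fold change was -0.13 with an adjusted p of 0.33 in edgeR. With 1 library left out, the call held only without SSC PDGF- replicate 1 (adjusted p = 0.015, edgeR) and was lost without each of the other 5 (0.091 to 0.16). The summed replicates gave 0.28.

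CENPQ, CENPK and CENPE had the largest positive log2 fold changes of the centromere genes, none of them called. CENPQ and CENPK belong to the inner kinetochore network on centromere chromatin. CENPQ had 28.5, 15.6 and 17.1 CPM with PDGF and 14.4, 7.38 and 9.19 without (0.95 ± 0.32, adjusted p = 0.077, edgeR). CENPK had 40.5, 25.1 and 25.7 CPM against 21.3, 15.2 and 16.3 (0.76 ± 0.24, adjusted p = 0.063, edgeR). CENPE, the kinetochore kinesin that moves chromosomes to the spindle equator, had 48.7, 32.3 and 30.6 CPM against 28.4, 20.5 and 15.7 (0.76 ± 0.27, adjusted p = 0.089, edgeR). For each of these genes every SSC PDGF+ library exceeded every SSC PDGF- library, and replicate 1, the batch 1 library, was highest in its group. DESeq2 called all of them higher, with adjusted p of 0.025 for CENPQ, 0.026 for CENPK and 0.039 for CENPE. CENPA, the histone H3 variant that marks the centromere, had 15.8, 17.5 and 16.0 CPM against 11.4, 10.3 and 12.9 (0.48 ± 0.17, adjusted p = 0.095, edgeR). Groups did not overlap for 9 centromere genes that were higher and 1 that was lower, where 19.9% and 18.3% of all genes did so.

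Other centromere genes lay close to 0. CENPF, a large kinetochore protein of late cell cycle, had 102, 76.8 and 70.4 CPM against 107, 68.3 and 66.0, with a log2 fold change of 0.02. CENPT and CENPC, which link centromere chromatin to the outer kinetochore, had 0.01 and 0.02. CENPM had 43.5, 68.6 and 76.0 CPM against 54.3, 82.1 and 78.9, with a log2 fold change of -0.22 ± 0.25 (adjusted p = 0.56, edgeR). These groups overlapped, and within a group batch 1 and batch 2 differed more than the group means did. With the block CENPA, CENPE, CENPI, CENPK, CENPN, CENPO, CENPQ, CENPU and CENPW were higher and CENPV and CENPM lower, again beside 31.1% and 29.0% of all genes. CENPB, which binds a satellite repeat, had 187, 279 and 263 CPM against 177, 237 and 249 and a log2 fold change of 0.11 ± 0.20 (adjusted p = 0.74, edgeR). Per kilobase the most abundant centromere genes were CENPB at 83.9 and 76.2 CPM per kb in SSC PDGF+ and SSC PDGF-, CENPM at 48.6 and 55.7, and CENPW at 41.3 and 31.3. CENPJ, which carries a CENP symbol but builds centrioles, had 25.1, 19.8 and 23.3 CPM against 18.0, 20.4 and 16.3 and a log2 fold change of 0.29 ± 0.18 (adjusted p = 0.28, edgeR).

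**Figure D2:**
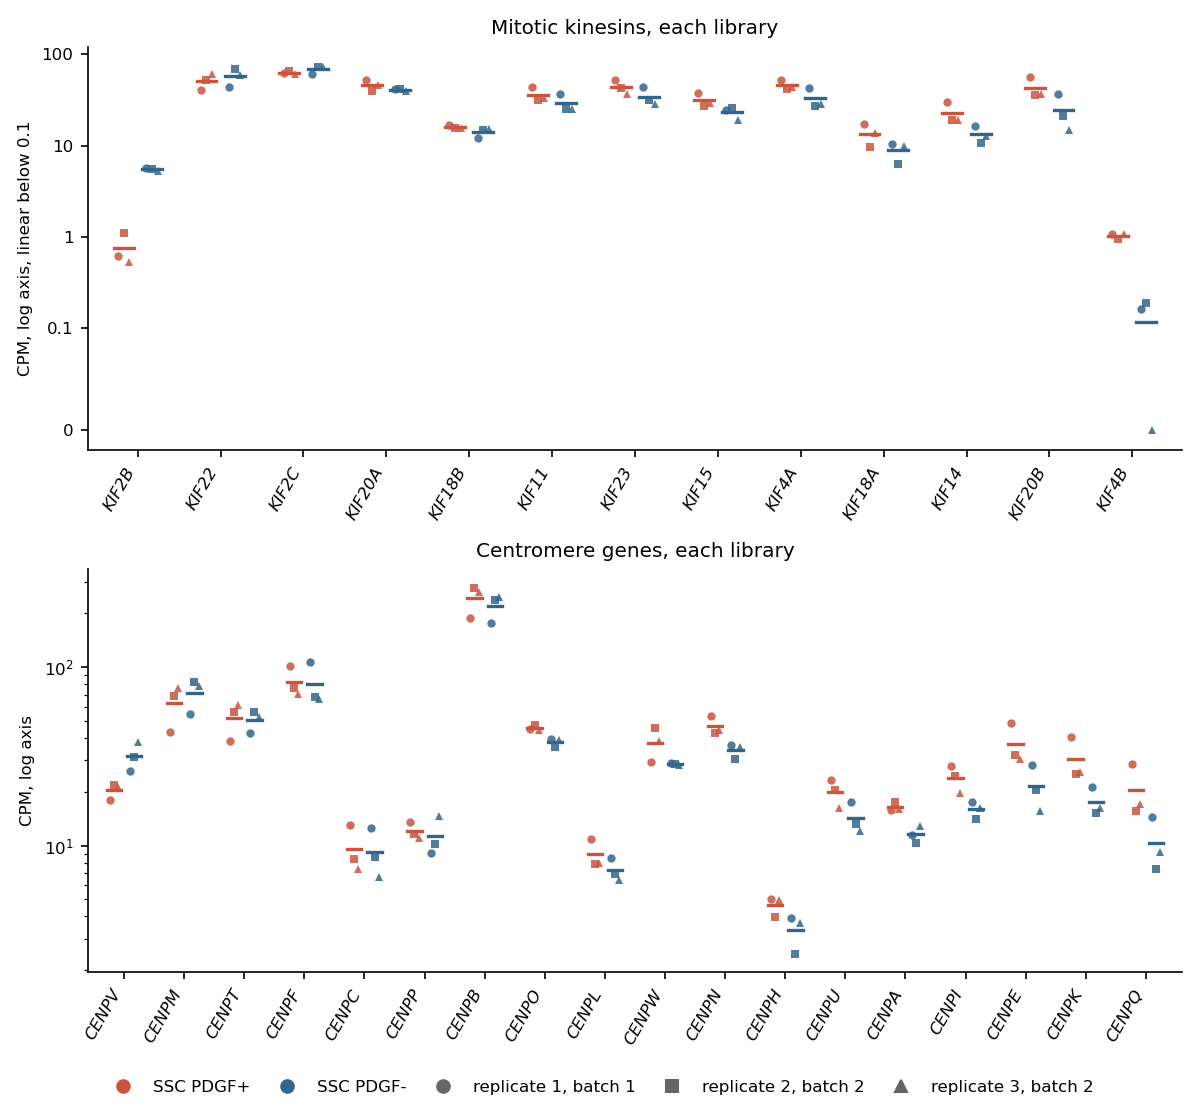
CPM of the 13 mitotic kinesins (top, axis linear below 0.1 CPM) and the 18 tested centromere genes (bottom), each library a point on a log axis, genes ordered by log2 fold change and short bars at group means (n = 3). KIF2B and KIF4B at the ends of the upper panel are the mitotic kinesins that were called, and CENPV at the left of the lower panel is the only called centromere gene.

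Of the 31 tested mitotic kinesins and centromere genes, 1 was called higher and 2 lower without a block, beside 7.61% and 10.7% of all genes. Under the replicate block 17 were higher (54.8%), beside 31.1% of all genes, and 4 were lower, beside 29.0%. With the block and a correction for GC content and length 17 were again higher (54.8%), beside 36.2% of all genes, and KIF2B and CENPF were lower, beside 22.7%. With this correction 58.9% of all genes passed, and 45.1% passed with the correction alone. That correction took the log2 fold change of CENPM from -0.22 to 0.30 and that of CENPF from 0.02 to -0.22, both past the threshold in edgeR with adjusted p of 9.7e-04 and 0.0059. GC content moved with the batch. Across the 64 tested members, the log2 difference between batch 1 and batch 2 correlated with GC content at r = -0.857, and the log2 fold change with GC content at r = -0.295, where all 11237 genes with GC values gave -0.811 and -0.205. The points share the same 6 libraries, and the part of GC content in the fold changes was not tested beyond that correction. Within batch 1 the median log2 difference was 0.32 for mitotic kinesins and 0.35 for centromere genes, and within batch 2 it was 0.37 and 0.35. The 7 genes of the proliferation index, MKI67 and TOP2A among them, had log2 fold changes with a median of 0.03, with 0 called by edgeR and 3 higher and 1 lower under the block, and summed to 643 to 757 CPM in SSC PDGF+ and 597 to 695 in SSC PDGF-.

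**Figure D3:**
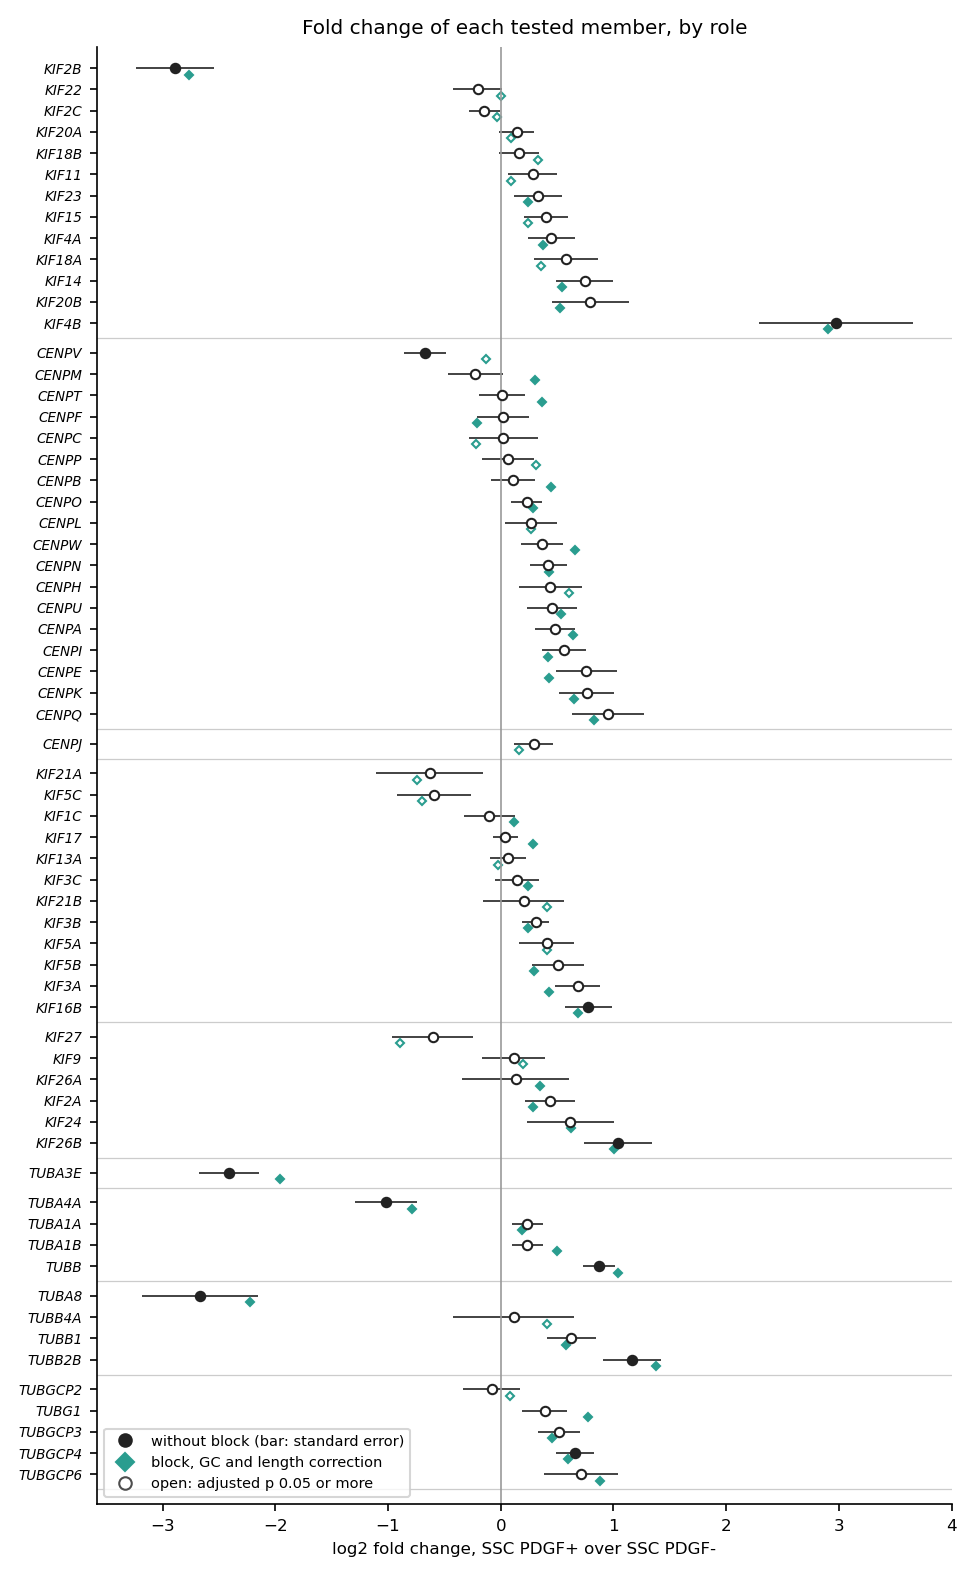
Log2 fold change (SSC PDGF+ over SSC PDGF-) of the 64 tested members by role, as circles with standard errors for the test without a block and diamonds for the block with GC and length correction, filled where the adjusted p is under 0.05. Most mitotic and centromere genes lie between 0 and 1 with open circles, and many of their diamonds are filled.

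The partners of these members were counted from lists by role. Of 15 tested genes of the outer kinetochore 12 had positive and 3 negative log2 fold changes (median 0.21), and only SPDL1, which brings dynein to kinetochores, was called. SPDL1 had 77.0, 52.5 and 49.4 CPM against 40.9, 26.1 and 27.9 (0.89 ± 0.24, adjusted p = 0.040, edgeR). None of 16 genes of the spindle checkpoint and mitotic kinases was called by edgeR (median 0.28), and with the block 8 were higher and 1 lower, beside 31.1% and 29.0% of all genes. Of 19 spindle microtubule proteins CKAP2L rose and PSRC1 fell, and of 9 centriole assembly genes SASS6, which forms the centriole cartwheel, rose. SASS6 had 11.7, 8.06 and 9.12 CPM against 6.03, 3.597 and 3.39 (1.11 ± 0.29, adjusted p = 0.033, edgeR). Over 109 tested genes of all partner lists 4 rose and 5 fell, or 9 of 109 beside 18.3% of all genes. Under the block 49 were higher and 19 lower, beside 31.1% and 29.0% of all genes. Summing replicates 2 and 3 left 0 partner genes higher and 2 lower, beside 1.72% and 4.06% of all genes. The SPDL1 and SASS6 calls held only when PDGF- replicate 1 was left out, with adjusted p of 0.056 to 0.14 for SPDL1 and 0.059 to 0.11 for SASS6 when any other library was (edgeR). Leaving out PDGF- replicate 1 gave 18 partner genes higher, and leaving out PDGF- replicate 2 or 3 gave 0. Among all genes these settings gave 1284, 444 and 441 higher, from 878.

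Of the 15 transport kinesins 12 were tested, with 9 positive and 3 negative log2 fold changes (median 0.17) and 1 call. KIF16B, which moves early endosomes, rose. It had 42.8, 30.6 and 30.1 CPM with PDGF and 22.6, 20.3 and 16.3 without, and the groups did not overlap. Its log2 fold change was 0.78 ± 0.21 (SE, n = 3 per group, adjusted p = 0.037, edgeR), and it held only without SSC PDGF- replicate 1, since the adjusted p was 0.063 to 0.13 without each of the other 5 libraries and 0.18 with replicates 2 and 3 summed. KIF3A, a subunit of the kinesin-2 motor of ciliary transport, had 32.5, 26.6 and 28.0 CPM against 22.2, 14.3 and 16.6 and came next (0.68 ± 0.20, adjusted p = 0.052, edgeR). KIF21A followed with a negative value, at 2.45, 1.58 and 1.29 CPM against 4.16, 2.65 and 1.26 (-0.63 ± 0.48, adjusted p = 0.39, edgeR).

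KIF5B, the widely expressed heavy chain of conventional kinesin, had 739, 485 and 485 CPM with PDGF and 504, 338 and 336 without. Its log2 fold change was 0.51 ± 0.23 (adjusted p = 0.16, edgeR), and it was 0.55 in batch 1 and 0.52 in batch 2. The difference was similar in both batches while the groups overlapped, because replicate 1 stood above its batch 2 partners in each group, and the block gave an adjusted p of 6.8e-10 in edgeR. Apart from KIF17, the most abundant transport kinesin per kilobase was KIF1C, a carrier of vesicles, at 121 CPM per kb in SSC PDGF+ and 127 in SSC PDGF-, with KIF5B at 79.0 and 54.5. KIF1C had 375, 592 and 566 CPM against 400, 588 and 622, overlapping groups with a log2 fold change of -0.10 ± 0.22 (adjusted p = 0.79, edgeR). The entry for KIF17, at 154 and 147 CPM per kb, had the same counts as DDOST in every library, so they may not be those of KIF17. With the block 5 transport kinesins were higher (KIF3A, KIF3B, KIF3C, KIF5B and KIF16B) and KIF1C was lower, beside 31.1% of all genes higher and 29.0% lower. Of 12 tested kinesin light chains and adaptors only KLC4 was called, and it fell (-0.61 ± 0.16, adjusted p = 0.038, edgeR). The KLC4 call held only when PDGF- replicate 1 was left out, with an adjusted p of 0.084 to 0.14 when any other library was (edgeR).

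The opposing motor gave a larger difference in 1 subunit. DYNC1I1, an intermediate chain of cytoplasmic dynein, had 1.63, 1.34 and 1.37 CPM with PDGF and 19.2, 14.6 and 13.6 without. All SSC PDGF- libraries lay far above all SSC PDGF+ libraries, with a log2 fold change of -3.47 ± 0.25 (adjusted p = 1.5e-04, edgeR) that held without each library in turn. DYNLRB2, a dynein light chain, also fell (-1.30 ± 0.27, adjusted p = 0.013, edgeR). The median over the 17 tested dynein and dynactin genes was 0.04. The DYNLRB2 call was lost when PDGF+ replicate 2, PDGF+ replicate 3, PDGF- replicate 2 or PDGF- replicate 3 was left out (adjusted p 0.052 to 0.061, edgeR).

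Of the 10 ciliary and other kinesins 6 were tested, 5 of them with a positive log2 fold change (median 0.28), and KIF26B was called. KIF26B, an atypical kinesin that binds microtubules, had 22.2, 39.3 and 40.4 CPM with PDGF and 11.7, 15.3 and 21.7 without. The groups did not overlap, although the lowest SSC PDGF+ library lay only just above the highest SSC PDGF- library, and the log2 fold change was 1.04 ± 0.30 (SE, n = 3 per group, adjusted p = 0.048, edgeR). The call was lost when PDGF+ replicate 2 (adjusted p = 0.13, edgeR), PDGF+ replicate 3 (0.14), PDGF- replicate 1 (0.065) or PDGF- replicate 2 (0.15) was left out, and with replicates 2 and 3 summed (0.20). KIF24, which restrains cilium assembly, and KIF27 came next and were not called, at 0.62 ± 0.38 (adjusted p = 0.30, edgeR) and -0.60 ± 0.36 (adjusted p = 0.28). Per kilobase KIF2A, a depolymerase of the KIF2B family, was highest at 28.0 and 20.3 CPM per kb, and its libraries held 147, 103 and 100 CPM against 108, 68.9 and 77.0. With the block KIF2A, KIF24 and KIF26B were higher, where 31.1% of all genes were. KIF26A had 12.1, 35.3 and 32.3 CPM against 10.8, 30.7 and 29.7, and the batches differed more than the groups.

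TUBA3E was the only testis-restricted tubulin in the table. It had 3.13, 3.79 and 3.57 CPM with PDGF and 12.6, 21.4 and 20.8 without, that is 46, 48 and 47 counts against 155, 226 and 215. Every SSC PDGF- library stood well above every SSC PDGF+ library, and within SSC PDGF- the batch 1 library was the lowest. The log2 fold change was -2.41 ± 0.26 (SE, n = 3 per group, adjusted p = 8.7e-04, edgeR), with -2.004 in batch 1 and -2.51 in batch 2. The call held without each library in turn and with replicates 2 and 3 summed, and with the block and GC and length correction the value was -1.96. Of the 50-base words of TUBA3E 16.1% occurred in transcripts of other genes. The spermatid markers given above were lower in the same libraries, and so were germ cell markers. The germ cell list summed to 0.30 to 1.22 CPM in SSC PDGF+ and 5.52 to 9.47 in SSC PDGF-. DDX4 and MAEL were called lower, and STRA8 was at 0 in all libraries. The list held 32 counts in SSC PDGF+ and 225 in SSC PDGF-. Its tested genes could not pass the filter on low counts without SSC PDGF-, the group where they were high. Markers of epithelial cells and of peritubular and smooth muscle cells were also lower in these libraries. The epithelial markers KRT18, CDH1 and PAX8, all of those tested, were called lower, and the list summed to 31.2 to 42.3 CPM against 75.9 to 104.8. All 5 peritubular and smooth muscle markers had negative log2 fold changes, with ACTA2 and DES called, and summed to 371 to 484 CPM against 690 to 897. Other marker lists did not fall in this way. The 2 tested Leydig cell markers and the 2 tested Sertoli cell markers had positive log2 fold changes. Endothelial markers had 3 positive and 2 negative values, and macrophage markers had 1 of each. None of these was called by edgeR without a block. The part of any of these cells in the values of TUBA3E and KIF2B was not tested.

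The members that did not pass the filter had few counts. KIF25, a kinesin-14, was counted 0, 1 and 0 times with PDGF and 5, 18 and 18 times without it, so the depth-scaled ratio was 50.1 (exact 95% interval 8.50 to 2027). CENPVL3, a copy of CENPV, had 0, 0 and 1 counts against 0, 0 and 7, so its groups overlapped and its ratio of 8.55 (1.10 to 386, counting error only) rests on PDGF- replicate 3. The intervals for KIF19 (2 counts against 8), KIF12 (2 against 6), KIF6 (7 against 13) and KIF13B (7 against 1) included a ratio of 1, so no difference was detectable at this depth. KIF1A, KIF1B and TUBB6 were listed at 0 in all 6 libraries.

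Of the 5 widely expressed tubulins 4 were tested, and TUBB rose while TUBA4A fell. TUBB, a common beta-tubulin, had 68.1, 61.1 and 64.1 CPM with PDGF and 33.9, 31.8 and 37.8 without. The groups were far apart compared with the spread within each, and the log2 fold change was 0.87 ± 0.14 (SE, n = 3 per group, adjusted p = 0.0052, edgeR). The call held without each library in turn, and the adjusted p was 0.087 with replicates 2 and 3 summed. TUBA4A, an alpha-tubulin, had 11.3, 21.4 and 20.7 CPM against 27.6, 36.1 and 41.8, and its log2 fold change was -1.01 ± 0.28 (adjusted p = 0.038, edgeR). The TUBA4A groups did not overlap, and the call was lost when PDGF+ replicate 2 (adjusted p = 0.063, edgeR), PDGF+ replicate 3 (0.071), PDGF- replicate 2 (0.11) or PDGF- replicate 3 (0.13) was left out, and with replicates 2 and 3 summed (0.18). The shared entry of TUBA1A and TUBA1B had 502, 601 and 627 CPM against 427, 507 and 505 and a log2 fold change of 0.24 ± 0.14 (adjusted p = 0.27, edgeR). With the block it was higher, at an adjusted p of 3.5e-05 in edgeR.

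Among the other tissue-restricted tubulins TUBB2B rose and TUBA8 fell. TUBB2B, a beta-tubulin of the developing brain, had 26.1, 45.0 and 47.2 CPM with PDGF and 14.3, 20.3 and 17.1 without, with no overlap and a log2 fold change of 1.16 ± 0.26 (adjusted p = 0.017, edgeR). This call was lost when PDGF+ replicate 2 (adjusted p = 0.063, edgeR), PDGF+ replicate 3 (0.063) or PDGF- replicate 3 (0.067) was left out, and with replicates 2 and 3 summed (0.14). TUBA8 had 0.611, 0.948 and 1.14 CPM against 2.44, 5.87 and 8.61, so all SSC PDGF- libraries were higher but spread widely. It passed the filter on low counts only through SSC PDGF-, the group where it was high. Its log2 fold change was -2.67 ± 0.52 (adjusted p = 0.010, edgeR), and it held without each library in turn but not with replicates 2 and 3 summed (0.069). TUBB1, known for its role in platelets, was the most abundant beta-tubulin entry per kilobase, at 132 CPM per kb in SSC PDGF+ and 83.6 in SSC PDGF-. It had 395, 614 and 587 CPM against 257, 367 and 391, with no overlap, and was not called (0.62 ± 0.22, adjusted p = 0.085, edgeR). It was called higher with the block (adjusted p = 6.4e-11, edgeR) and by DESeq2 (adjusted p = 0.041). The platelet genes PPBP, GP9, GP1BA and ITGA2B, chosen after these values were seen, had 0 to 11 counts per library. Whether the reads counted for TUBB1 came from its own transcripts was not tested. TUBB4A, a neural beta-tubulin, had 0.747, 2.21 and 1.14 CPM against 0.652, 1.51 and 1.55 (0.11 ± 0.54, adjusted p = 0.90, edgeR).

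**Figure D4:**
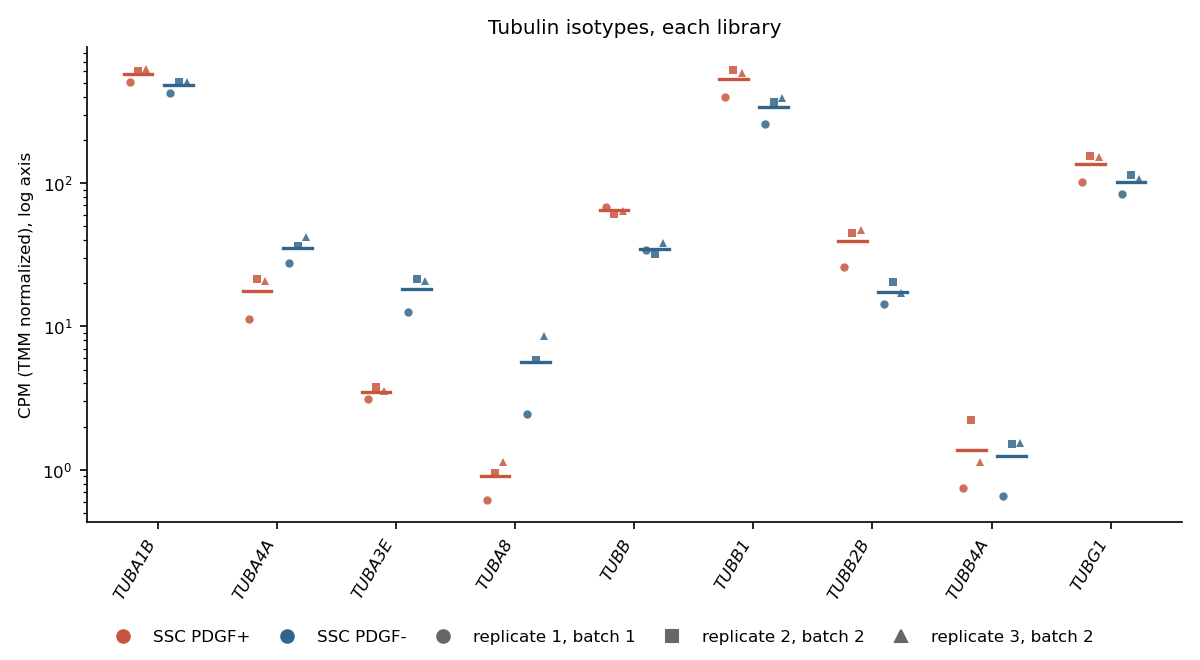
CPM of 8 alpha- and beta-tubulin entries and TUBG1 in each library, on a log axis with short bars at the group means (n = 3), colour for the group and shape for the replicate; TUBA1B stands for its shared counts with TUBA1A. TUBA4A, TUBA3E and TUBA8 lie lower and TUBB, TUBB1 and TUBB2B higher in SSC PDGF+, with no overlap for these 6.

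Per kilobase, with the length of TUBA1B for the shared entry, TUBA1A and TUBA1B made up 97.5% ± 0.397 (SD, n = 3) of the alpha-tubulin total in SSC PDGF+ and 91.7% ± 1.36 in SSC PDGF-. The TUBA3E share was 0.624% ± 0.0347 against 3.63% ± 0.632, and that of TUBA8 0.118% ± 0.0228 against 0.822% ± 0.397. Of the alpha entries only the shared TUBA1A and TUBA1B entry took a larger share with PDGF, and no test was run on shares. Of 18 tested genes that fold or modify tubulin, TTLL7, which adds glutamates to tubulin tails, rose (1.11 ± 0.24, adjusted p = 0.017, edgeR). STMN1, which binds free tubulin, fell from 281, 221 and 230 CPM in SSC PDGF- to 189, 144 and 123 in SSC PDGF+ (-0.71 ± 0.19, adjusted p = 0.034, edgeR), with no overlap. In edgeR the TTLL7 call was lost when PDGF+ replicate 2, PDGF- replicate 2 or PDGF- replicate 3 was left out (adjusted p 0.054 to 0.065), and the STMN1 call when PDGF+ replicate 2, PDGF+ replicate 3, PDGF- replicate 2 or PDGF- replicate 3 was left out (0.076 to 0.12).

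Gamma-tubulin and its ring complex gave 4 positive and 1 negative log2 fold change (median 0.52), and TUBGCP4 was called. TUBGCP4, a subunit of the ring complex, had 24.5, 22.4 and 26.7 CPM with PDGF and 14.5, 14.4 and 16.8 without. The groups did not overlap, and the log2 fold change was 0.66 ± 0.17 (SE, n = 3 per group, adjusted p = 0.028, edgeR). The gene overlaps TP53BP1 on the opposite strand, and 51.0% of its 50-base words occurred in other transcripts, so its counts are uncertain where strand was not used. Its call was lost when PDGF+ replicate 2 (adjusted p = 0.068, edgeR), PDGF+ replicate 3 (0.11), PDGF- replicate 2 (0.11) or PDGF- replicate 3 (0.059) was left out, and with replicates 2 and 3 summed (0.20). TUBGCP6 and TUBGCP3, further subunits, had log2 fold changes of 0.71 ± 0.33 (adjusted p = 0.17, edgeR) and 0.52 ± 0.18 (0.089). TUBG1, the gamma-tubulin itself, had 102, 154 and 151 CPM against 84.2, 114 and 106 (0.39 ± 0.20, adjusted p = 0.21, edgeR), and TUBGCP2 had 78.1, 124 and 120 against 76.5, 129 and 129. With the block, TUBG1, TUBGCP3, TUBGCP4 and TUBGCP6 were higher, where 31.1% of all genes were.

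Because the groups did not overlap for any of the 11 called members, the sign had to be the same in batch 1 and batch 2. Only the sizes of the differences can be compared. KIF2B differed by -3.15 log2 units between the groups in batch 1 and by -2.74 in batch 2, and KIF4B by 2.46 and 3.28. TUBA8 differed by -1.94 and -2.73, TUBB by 1.01 and 0.85, and CENPV by -0.55 and -0.67. Batch 1 holds 1 library per group, so its values have no replicate error.

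**Figure D5:**
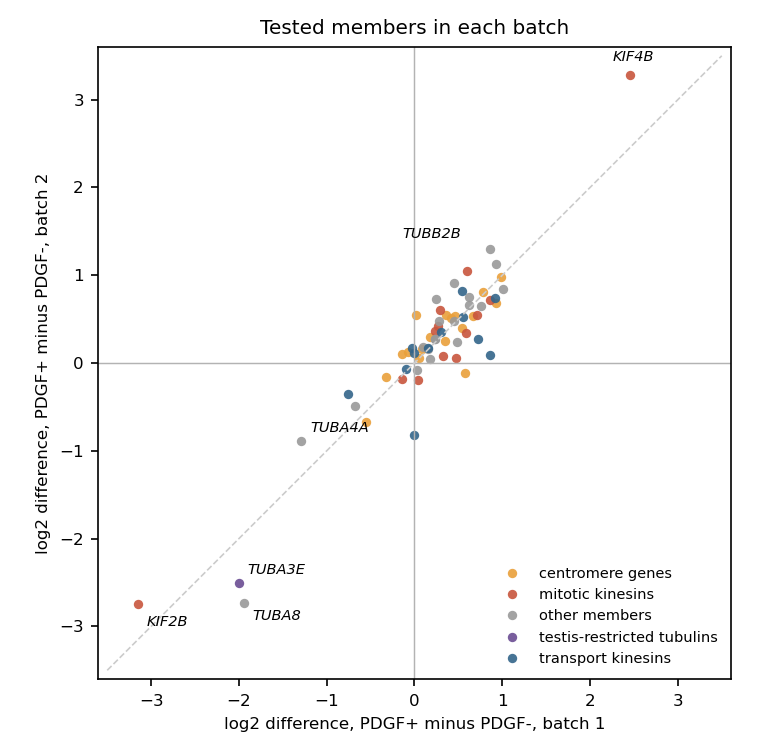
Log2 difference between SSC PDGF+ and SSC PDGF- within batch 1 (x axis) and batch 2 (y axis) for the 64 tested members, coloured by role, with a dashed line of equality. KIF2B, TUBA3E and TUBA8 lie far down on the left and KIF4B far up on the right, and most other members lie near the origin or slightly above it.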

How the data were processed

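Bulk RNA sequencing of SSC PDGF+ and SSC PDGF- was analysed, 3 libraries each, grouped by the labels. The counts per gene that the authors deposited, without normalization, were handled in the manner of expected counts and rounded, since 34 values in 13 genes were not whole. The plan assumed whole counts. The submitters' processing notes name fastp, HISAT2 2.1.0, SAMtools and featureCounts 2.0.1, and both Mmul_10 and Mmul_8.0.1, so no coordinates are given. Totals were 10593808 to 14102698 counts. The tail of 1 tubulin pair is not reported here.

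Counts were normalized with TMM, filtered with filterByExpr and tested with the quasi-likelihood test of edgeR 4.0.16 (R 4.3.3), Benjamini-Hochberg adjusted over 11539 genes. Each standard error was the absolute fold change (log2) over the square root of F. Within-batch differences used 0.5 added counts. Members and lists were chosen with earlier results of these data known. Named genes are called members, per role the 3 largest changes and the 3 highest levels, members under the filter, and up to 3 called genes per partner list and direction. Genes outside this rule, such as KIF4A, KIF11, CENPA, CENPF, CENPC, CENPT and TUBG1, were picked with their values known.

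Libraries of the same number share a batch by the labels for replicate 1, and their deviations correlated at r = 0.73, 0.35 and 0.37, so the replicate number was used as a block in an alternative. Cross pairs of replicates 2 and 3 gave 0.36 and 0.39, so this pairing is by batch as much as by number. Further alternatives were RLE and no normalization factors, other filters, DESeq2 1.42.0, a batch term, batch 2 alone, replicates 2 and 3 summed, each library left out a threshold of 0.1 and, added after seeing the data, a GC and length correction and the summed KIF4A and KIF4B counts. On simulated counts for this comparison edgeR recovered 167 of 200 changed genes among 11423, with 2 false calls. The simulation had the same dispersion for every gene, no batch difference and only log2 changes of 1 or 2 in size. It therefore does not show how the test performed on these libraries. Figures used matplotlib 3.10.9.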

Additional observations from a re-analysis of the deposited data

How the results depend on the processing

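The counts depended on how the replicates were modelled. Against 6 members called higher and 5 lower, the replicate block gave 34 and 8, a batch term 34 and 8, batch 2 alone 29 and 9, replicates 2 and 3 summed 0 and 2, the block with GC and length correction 37 higher, and that correction alone 30 higher. Requiring 10 or more counts in each library gave 3 and 3, DESeq2 gave 12 higher, and an adjusted p under 0.1 gave 15 higher. Leaving out each library gave 1 to 14 higher and 3 to 6 lower. Over all genes, 878 higher and 1230 lower became 3587 and 3347 with the block, 3604 and 3387 with a batch term, 3041 and 3085 in batch 2 alone, 206 and 487 with replicates summed, 4068 and 2553 with block and GC correction, 3082 and 1984 with that correction alone, and 435 to 1284 and 726 to 1726 with a library left out. Partner genes, 4 higher and 5 lower, became 49 and 19, 51 and 21, 40 and 17, 0 and 2, 55 and 14, and 36 and 9 under the same settings, with 10 higher by DESeq2, and 0 to 18 and 2 to 6 with a library left out.

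Median log2 fold changes moved to 0.42 for centromere genes, 0.27 for transport kinesins and -1.96 for TUBA3E with the block and GC correction, and to 0.86 for other tissue-restricted tubulins with the filter of 10 counts. For ciliary and other kinesins the median became -0.22 with at least 1 count in any library, -0.23 with DESeq2 and 0.11 in batch 2 alone. With a library left out it ranged from -0.05 to 0.36 there, from 0.19 to 0.49 for mitotic kinesins and from 0.12 to 0.26 for transport kinesins.

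The sign changed only for small log2 fold changes that were not called in the test without a block. With the filter of 10 counts it changed for CENPC (-0.0076), CENPF (-0.015) and CENPT (-0.024), and in batch 2 alone for CENPC (-0.0036), CENPP (-0.19) and KIF21B (-0.050). It changed with replicates summed for CENPF (-0.0019) and CENPT (-0.0091), and for CENPT with the block (-0.0035) and a batch term (-0.0028). With the block and GC correction it changed for CENPC (-0.22), CENPF (-0.22), CENPM (0.30), KIF13A (-0.024), KIF1C (0.12), KIF22 (0.0030) and TUBGCP2 (0.079), of which CENPF, CENPM and KIF1C passed the threshold. With the block alone CENPM (-0.24, adjusted p = 0.0071, edgeR) and KIF1C (-0.10, adjusted p = 0.041, edgeR) were called lower. Their calls thus had opposite signs in these settings. With a library left out the range was -0.042 to 0.27 for CENPB, -0.25 to 0.29 for CENPC, -0.15 to 0.27 for CENPF, -0.087 to 0.30 for CENPP, -0.12 to 0.19 for CENPT, -0.0015 to 0.19 for KIF13A, -0.29 to 0.089 for KIF1C, -0.072 to 0.73 for KIF21B, -0.23 to 0.49 for KIF26A, -0.010 to 0.29 for KIF3C, -0.047 to 0.38 for KIF9, -0.40 to 0.42 for TUBB4A and -0.31 to 0.11 for TUBGCP2.
The cause of these shifts was not tested. TUBA1A and TUBA1B, with identical counts, got corrected log2 fold changes of 0.19 and 0.50, because GC content and length were taken from each named transcript. Calls under 20 counts per library, KIF4B and KIF2B in PDGF+ libraries among them, rest on few reads, and depth limits the untested members.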
